A study of Drosophila melanogaster with 3 samples.

Results

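The genes described here encode the subunits of the Drosophila proteasome and their paralogues, examined for occupancy of their promoters by the ETS family transcription factor Ets65A. They are the 48 protein-coding genes whose names start with Prosalpha, Prosbeta, Rpn and a digit, or Rpt and a digit, out of 13945 protein-coding genes on the 6 chromosome arms that were annotated. Of the 48, 16 carry a T or R suffix and are called paralogues here, and 32 are the ubiquitous copies, made up of 14 core, 10 base and 8 lid subunit genes. The rule uses gene names and no measured value, but the family was taken up with earlier results of these data known. The data came from chromatin immunoprecipitation and sequencing (ChIP-seq) of whole embryos, 0 to 24 h old and of mixed sex, from a transgenic line (strain label ets3-GFP) that stably expresses Ets65A with GFP at its C-terminus. The 3 biological replicates, each with 1 technical replicate, form 1 group that shares this genotype and age, so there was no group to compare it with. The labels describe a precipitation with anti-GFP, although their antibody field reads Ets65A. Whole embryos pool many cell types, and occupancy in few cells cannot be told apart from weaker occupancy in many.

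The proteasome degrades proteins tagged with ubiquitin. Its core particle is a barrel of alpha rings, which gate the entrance, and beta rings, which hold the proteolytic sites. The regulatory particle that caps it has a base, with a ring of ATPases that unfold substrates and with ubiquitin receptors, and a lid, in which Rpn11 removes ubiquitin chains. In Drosophila many of the core genes, and some of the others, have paralogues, several of which are known to be used in the testis and male germ line.

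Occupancy is given as peaks in the authors' lists. Each peak carries a summit, its position of highest signal, and a signal value, which is a score of unstated scale. The irreproducible discovery rate (IDR) list holds 2780 peaks judged reproducible between replicates, and the pooled list, called on the 3 replicates together, holds 28940. Genes are called bound here if at least 1 annotated transcription start site (TSS) was no more than 500 bp from an IDR summit. Values of a gene are those of its strongest promoter summit. The lists held no read counts, so the depth behind each peak is unknown, and no test could be made between groups of samples.

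To show what lies under the bound promoters, the sequence around the IDR summit is given for 5 bound subunit genes, 3 of the base and 2 of the lid. All are written on the plus strand of dm6, from the RefSeq release of the same assembly. The stretches reach at most 100 bp to each side of the summit and stop where more than 30 annotated UTR bases would be included. They are chr3R:23752805-23752905 for Rpt5, an ATPase, chr3L:19914876-19915076 for Rpn1, a scaffold that docks ubiquitin shuttles, chr3R:29153372-29153553 for Rpn2, the scaffold that holds Rpn13, and, for the structural lid subunits, chr2L:19051691-19051819 for Rpn3 and chr3R:5789165-5789358 for Rpn5. Capitals mark matches to the motifs searched. The DNA replication-related element (DRE), the site of the factor Dref, was searched as TATCGATA and also by its inner 6 bases, ATCGAT. GGTCACAC is the element to which the factor M1BP binds. The core of a site for ETS family proteins was searched as CCGGAA, and TGANNNNGC is the antioxidant response core. A match to TATAAA was taken as a TATA box, and the E-box, a site of basic helix-loop-helix proteins, was searched as CAGCTG.
Rpt5: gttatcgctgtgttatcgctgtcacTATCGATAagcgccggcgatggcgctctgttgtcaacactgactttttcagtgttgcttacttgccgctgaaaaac
Rpn1: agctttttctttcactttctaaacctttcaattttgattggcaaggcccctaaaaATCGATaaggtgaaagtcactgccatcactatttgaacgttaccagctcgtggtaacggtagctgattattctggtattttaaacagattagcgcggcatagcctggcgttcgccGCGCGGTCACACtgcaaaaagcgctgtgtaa
Rpn2: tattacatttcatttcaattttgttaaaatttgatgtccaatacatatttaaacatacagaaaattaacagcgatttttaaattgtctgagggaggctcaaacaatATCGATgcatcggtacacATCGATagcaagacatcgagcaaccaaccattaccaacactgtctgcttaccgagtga
Rpn3: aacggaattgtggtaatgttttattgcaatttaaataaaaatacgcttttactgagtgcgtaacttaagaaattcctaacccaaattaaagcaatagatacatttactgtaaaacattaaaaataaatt
Rpn5: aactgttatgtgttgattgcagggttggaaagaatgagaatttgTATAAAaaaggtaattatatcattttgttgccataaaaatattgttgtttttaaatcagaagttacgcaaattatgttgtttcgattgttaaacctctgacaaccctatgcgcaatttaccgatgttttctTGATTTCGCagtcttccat

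In Rpt5 the capitals are a full DRE that ends 5 bp before the summit. Rpn1 holds an ATCGAT that ends 40 bp before its summit and, 74 bp after it, the M1BP element, whose first letters overlap an antioxidant response core read on the opposite strand. Rpn2 holds ATCGAT at 6 and again at 24 bp after the summit. The stretch of Rpn5, the strongest peak of the family, holds neither a DRE nor ATCGAT. It has an antioxidant response core and a match to TATAAA that ends 51 bp before the summit. That summit itself lies 228 bp upstream of the TSS of Rpn5. The stretch of Rpn3 holds none of the motifs, but it stops short of a DRE centred 79 bp from the summit. For contrast, the region around the TSS is given for Prosalpha3T (chr3R:31123386-31123515, a minus strand gene) and Rpn13R (chrX:5131798-5131927, a plus strand gene), whose ubiquitous copies Prosalpha3 and Rpn13 were bound while they were not, both again written on the plus strand.
Prosalpha3T: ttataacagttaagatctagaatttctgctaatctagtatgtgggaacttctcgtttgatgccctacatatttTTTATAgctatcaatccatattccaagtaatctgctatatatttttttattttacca
Rpn13R: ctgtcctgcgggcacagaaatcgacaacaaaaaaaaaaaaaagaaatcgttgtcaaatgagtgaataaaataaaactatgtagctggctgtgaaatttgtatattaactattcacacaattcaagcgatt

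Between them, these 2 stretches hold 1 match, a TATA box upstream of Prosalpha3T, written in capitals on the opposite strand. They were taken around a TSS and not a summit, so they are not matched to the stretches above. In the wider promoter window searched below, Rpn13R also holds an antioxidant response core.

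Ets65A-eGFP was found at the promoters of a minority of proteasome genes. An IDR summit lay within 500 bp of a TSS of 9 of the 48 genes (18.8%), against 2200 of all 13945 protein-coding genes (15.8%), so the family as a whole was close to the background. With the longer pooled list, 29 of 48 genes (60.4%) had a promoter summit, against 53.6% of all genes. A promoter summit stood in all 3 replicate lists for 17 genes (35.4%), against 30.3% of all genes. It was among the 2780 strongest peaks of all 3 replicates for 4 genes (8.33%), against 9.75% of all genes. The median pooled signal value was 54.8 over the 29 members with a summit and 44 over all genes with one. Within the family the counts were uneven, as the 9 bound genes were 4 of 8 lid genes, 4 of 10 base genes and 1 of 14 core genes, with 0 of 16 paralogues.

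**Figure D1:**
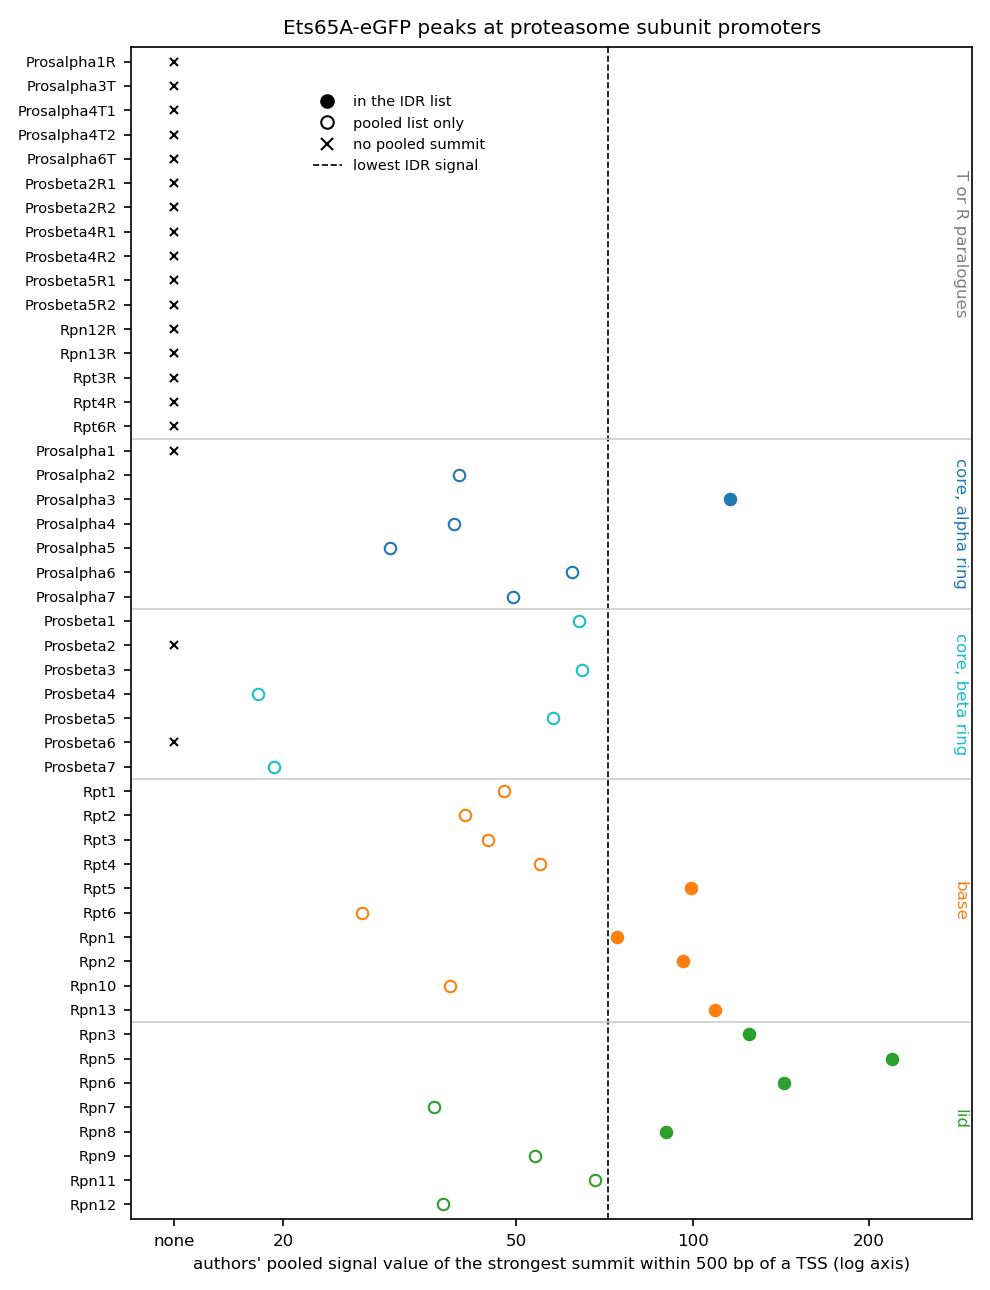
Pooled signal value of the strongest summit within 500 bp of a TSS (x axis, log scale) for each of the 48 genes, 1 gene a row, with the paralogues at the top and the ubiquitous copies grouped by place in the particle below. Filled points are in the IDR list, open points are in the pooled list only, and crosses mark genes with no pooled summit; all 16 paralogues are crosses, and the filled points reach from 74.3 (Rpn1) to 219 (Rpn5), to the right of the lowest IDR signal of 71.8.

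The lid held the 3 strongest peaks of the family. Rpn5, a structural subunit, had a pooled signal of 219 (rank 331 of 28940), with 61.3, 96.8 and 56.6 in replicates 1, 2 and 3 (71.6 ± 22.0, SD, n = 3). It ranked 351, 266 and 660 among the 30000 peaks of those lists and was high in every replicate. Its summit lay 228 bp upstream of its TSS, inside an intron of the gene on the other strand, Hat1. The pooled summit nearest to the TSS of Rpn5 was a separate and weaker one, at 28 bp, with a signal of 28.2 (rank 12290). Rpn6, a structural subunit that clamps the lid to the core particle, had 143, with 44.0, 45.0 and 53.1 in the replicates (47.4 ± 5.0) and ranks of 698, 1358 and 758. Its peak lay in its own intron, 99 bp upstream of an internal TSS. Rpn3 had 125, with 24.1, 38.9 and 53.1 (38.7 ± 14.5) and ranks of 1939, 1740 and 760, and its summit lay 1 bp downstream of a TSS, in the 5' UTR. Rpn5, Rpn6 and Rpn3 were the lid genes found among the 2780 strongest peaks of each replicate. Rpn8, the MPN domain partner of Rpn11, had 90.1, with 13.8, 37.7 and 33.5 in the replicates (28.3 ± 12.8). Replicate 1 stood apart there, at rank 7153 against 1847 and 1937 in replicates 2 and 3. The Rpn8 summit lay in its own intron, 233 bp upstream of an internal TSS.

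Rpn11, the deubiquitinase, fell just outside the IDR list, at 68.1 (rank 3030), with 11.6, 33.8 and 21.1 in replicates 1, 2 and 3. The other lid genes, Rpn7, Rpn9 and Rpn12, had pooled summits of 36.2, 53.8 and 37.5. In all, 7 of the 8 lid genes (87.5%) had a promoter summit in all 3 replicate lists, the exception being Rpn12, which was in replicate 2 only. The median pooled signal of the lid was 79.1, against 44 over all genes with a pooled promoter summit. Sem1, a small lid subunit that the naming rule does not take in, had no IDR summit and a pooled signal of 34.1.

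In the base, bound genes were the 2 large scaffolds, 1 of the 2 ubiquitin receptors and 1 of the 6 ATPases. Rpn13, a ubiquitin receptor, had a pooled signal of 109 (rank 1422), with 21.5, 46.8 and 26.7 in the replicates (31.6 ± 13.3) and ranks of 2375, 1267 and 2978. Rpt5, an ATPase, had 99.5, with 20.6, 35.0 and 40.3 (31.9 ± 10.2) and ranks of 2579, 2081 and 1333. It was the base gene found among the 2780 strongest peaks of every replicate. Rpn2, a scaffold, had 96.1, with 18.4, 45.4 and 33.0 (32.3 ± 13.5) and ranks of 3259, 1337 and 2000. Rpn1, the other scaffold, had 74.3, near the lowest value in the IDR list, with 16.7, 36.5 and 19.1 (24.1 ± 10.8) and ranks of 4080, 1937 and 5412. Its −log10 q of 3.24 was below the 3.7 that the other 8 bound genes shared. It was also below that of 5 unbound members of lower signal, from Rpn11 (3.31) to Prosbeta5 (3.41). All 10 base genes had a pooled summit, with a median signal of 51.2. The ATPases Rpt1, Rpt2, Rpt3, Rpt4 and Rpt6 had 47.6, 40.9, 44.7, 54.8 and 27.2, and Rpn10, a ubiquitin receptor, had 38.5.

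The core particle had 1 bound gene of 14 (7.14%). Prosalpha3, an alpha ring subunit, had a pooled signal of 116 (rank 1275), with 49.1, 47.1 and 19.5 in replicates 1, 2 and 3 (38.6 ± 16.5). Replicate 3 was the low one, at rank 5241 against 553 and 1254 in replicates 1 and 2. None of the 7 beta ring genes was bound. Prosbeta3, a structural subunit, had 64.8, with 10.4, 26.5 and 29.7 in the replicates. The catalytic subunits Prosbeta1, of caspase-like activity, and Prosbeta5, of chymotrypsin-like activity, had 63.9 and 57.7. Their replicate values were 14.5, 22.3 and 26.0 for Prosbeta1 and 20.5, 19.4 and 14.3 for Prosbeta5. All 3 pooled values lay below the IDR minimum of 71.8, as did that of Prosalpha6, at 62.3, whose replicates were close together (20.9, 21.1 and 20.3). The median over the 11 core genes with a pooled summit was 49.4. Prosbeta4 and Prosbeta7, structural subunits, had the weakest pooled peaks of the family, at 18.1 and 19.3 with −log10 q of 0.018 and 0.0457.

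The core also held the 3 ubiquitous copies that had no pooled promoter summit. They were the alpha ring gene Prosalpha1, Prosbeta2, which carries the trypsin-like site, and Prosbeta6. Prosbeta2 had a weak pooled summit of 20.6 at 738 bp from its TSS, just outside the distance. Rpn10 and Prosbeta7, which also had nearer summits, had stronger ones of 45.1 at 784 bp and 22.6 at 811 bp. At Prosalpha1 and Prosalpha1R, 100% of the 36-base stretches within 500 bp of the TSS occur again in the genome, and reads of such sequence may have no single place. The absence of peaks at this pair is therefore uncertain. Leaving both out gave 9 of 31 ubiquitous copies (29.0%), 1 of 13 core genes (7.69%) and 0 of 15 paralogues bound. Of the other 46 genes, 43 had no repeated stretch and 3 had between 2.28% and 4.64%.

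The 20 members with a pooled but no IDR promoter summit had signals between 18.1 and 68.1, with a median of 42.8. Of these, 5 had a −log10 q of at least 3 and 5 were under 1. The 6 of highest signal were Rpn11, Prosbeta3, Prosbeta1, Prosalpha6, Prosbeta5 and Rpt4. Rpt4 had 21.2 and 26.0 in replicates 2 and 3 and no promoter summit in the list of replicate 1. Replicate 1 listed fewer members than the others in all, 21 against 31 and 30, and likewise fewer of all genes, 5910 against 7541 and 7730.

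**Figure D2:**
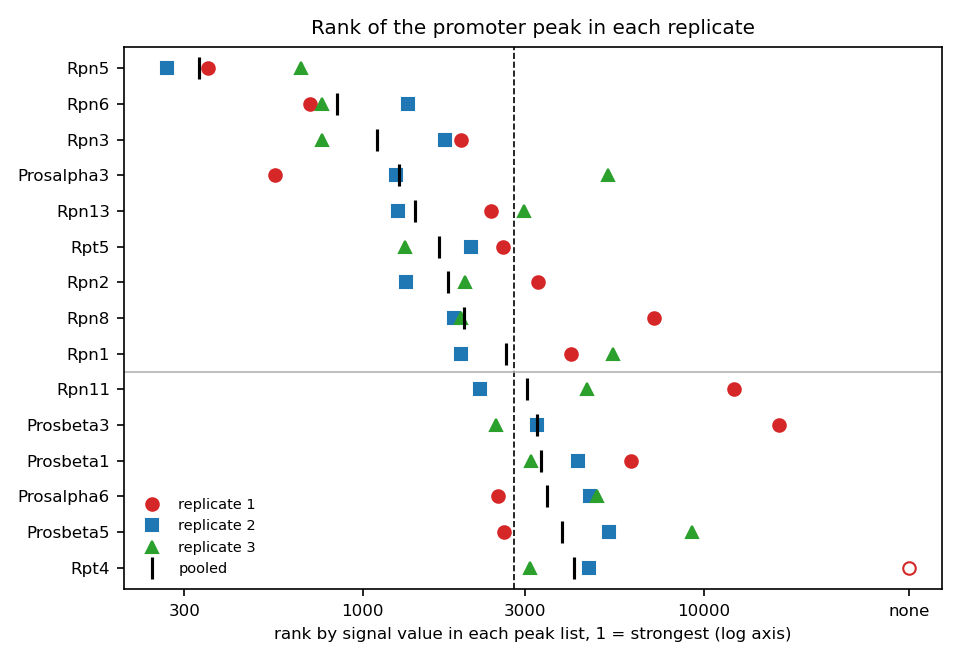
Rank of the promoter peak by signal value (x axis, log scale, 1 the strongest) in each replicate list and in the pooled list, for the 9 bound genes above the grey line and the 6 next in pooled signal below it; the dashed line is rank 2780, the size of the IDR list. Rpn5, Rpn6, Rpn3 and Rpt5 lie left of it in all 3 replicates, and Rpt4 has an open circle at the right because replicate 1 held no promoter peak for it.

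Side by side, 1 of 14 core, 4 of 10 base and 4 of 8 lid genes were bound. A pooled promoter summit stood at 11 of 14, 10 of 10 and 8 of 8, against 53.6% of all genes. The base and the lid stood above the background of 15.8% and the core (7.14%) below it, but these are counts of few genes in 1 group of samples and the difference between them was not tested. The pooled signal ranges overlapped widely, at 18.1 to 116 in the core, 27.2 to 109 in the base and 36.2 to 219 in the lid. The medians of the core and the base were close, at 49.4 and 51.2, and that of the lid was 79.1. The strongest unbound genes had 64.8 in the core (Prosbeta3), 54.8 in the base (Rpt4) and 68.1 in the lid (Rpn11). These lay under the lowest IDR signal of 71.8, so the counts of bound genes depend on that cut. In the core 5 genes (35.7%), in the base 5 (50%) and in the lid 7 (87.5%) were in all 3 replicate lists, against 30.3% of all genes.

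**Figure D3:**
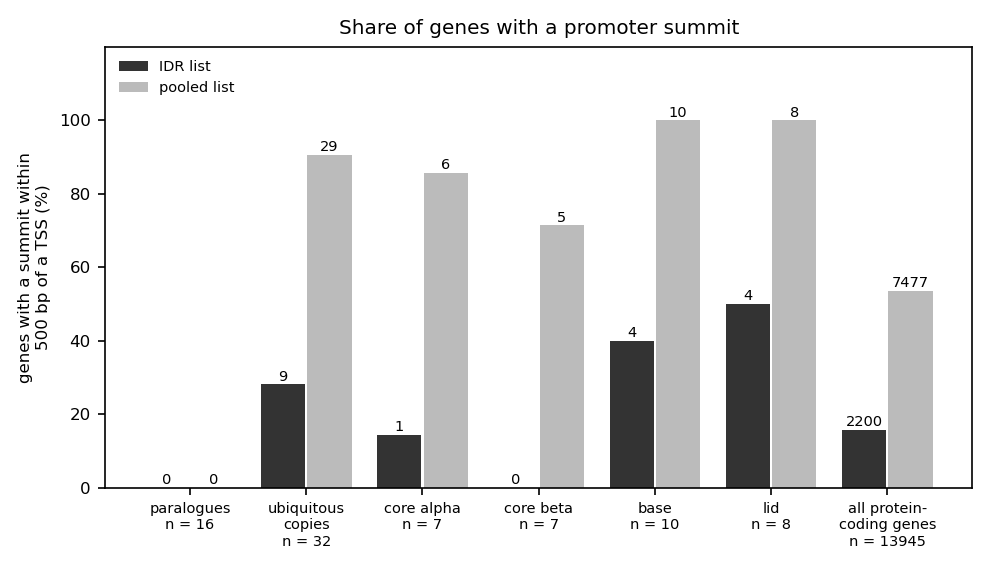
Percentage of genes with a summit within 500 bp of a TSS (y axis) in the IDR list (dark bars) and the pooled list (light bars), with the number of such genes above each bar. Paralogues have 0 in both lists, the base and the lid are at 100% in the pooled list, and all protein-coding genes are at 15.8% and 53.6%.

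None of the 16 paralogues had an IDR or a pooled promoter summit, against 9 (28.1%) and 29 (90.6%) of the 32 ubiquitous copies. The nearest pooled summit lay 655 to 14316 bp from a TSS of a paralogue (median 6744 bp), and 0 to 2193 bp from one of a ubiquitous copy (median 45 bp). The closest was at Prosalpha4T1, with a pooled signal of 27.6 at 655 bp. Among paralogues and their copies, Prosalpha3T stood at no peak against 116 at Prosalpha3, and Rpn13R at none against 109 at Rpn13. Prosalpha6T was without a peak, against 62.3 at Prosalpha6, and Prosalpha4T1 and Prosalpha4T2 likewise against 39.1 at Prosalpha4. Prosbeta5R1 and Prosbeta5R2 had none against 57.7 at Prosbeta5, and Prosbeta4R1 and Prosbeta4R2 none against 18.1 at Prosbeta4. The lowest signal of the pooled list was also 18.1, so the contrast at Prosbeta4 was slight. The ATPase paralogues Rpt3R, Rpt4R and Rpt6R had none, against 44.7 at Rpt3, 54.8 at Rpt4 and 27.2 at Rpt6, and Rpn12R had none against 37.5 at Rpn12. Prosalpha1R, Prosbeta2R1 and Prosbeta2R2 are paired with copies that had no pooled promoter summit either.

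In the separate replicate lists, 6 paralogues had a promoter summit, all of low signal. Replicate 1 listed Prosalpha6T (8.77) and Rpt4R (9.25), replicate 2 listed Prosbeta2R2 (9.37) and Rpt3R (9.74), and replicate 3 listed Prosbeta2R2 (9.53), Prosbeta5R1 (7.28) and Rpt6R (11.2). The lowest signals in those lists were 8.06, 7.20 and 7.22. No paralogue appeared in all 3 replicate lists, against 30.3% of all genes. Of the 16, 10 were in no list at all, against 3990 of all 13945 genes.

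Gene spacing moved with these counts. Another gene's TSS lay within 500 bp of an own TSS at 3 of 16 paralogues (18.8%) and 21 of 32 ubiquitous copies (65.6%), against 30.9% of all protein-coding genes. Over all genes, 31.4% of those with such a neighbour were bound and 8.77% of those without one. Among ubiquitous copies, 7 of 21 with a neighbour (33.3%) and 2 of 11 without one (18.2%) were bound. The share with a neighbour was close to the background of its kind, and the share without one, resting on 2 bound genes, was above it. Without a neighbour, 0 of 13 paralogues and 10 of 11 ubiquitous copies (90.9%) had a pooled summit, against 43.1% of all such genes. In the IDR list it was 0 of 13 paralogues and 2 of 11 copies. With a neighbour, a pooled summit stood at 0 of 3 paralogues and 19 of 21 copies (90.5%), against 77.1% of all such genes. The part of gene spacing in these counts was not tested. Among genes with a neighbour, 0 of 9 core, 3 of 6 base and 4 of 6 lid genes were bound.

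Bound peaks were mostly shared with a second gene. At 8 of the 9 bound genes (88.9%) the TSS of another protein-coding gene, in each case on the opposite strand, lay within 500 bp of the summit, against 1342 of 2200 bound genes (61.0%). For Rpn5 it was Hat1, a histone acetyltransferase, at 119 bp from the summit and nearer than the TSS of Rpn5. RanBP3, a nuclear transport cofactor, began 8 bp from the summit of Rpt5, and Slik, a kinase, 92 bp from that of Rpn8, both nearer than the member. The others were ave at Rpn6 (151 bp), l(2)37Bb at Rpn3 (179 bp), Slbp at Rpn2 (206 bp), CtsL1 at Rpn13 (151 bp) and dgt3 at Prosalpha3 (477 bp), where the member's own TSS was the nearer one. Rpn1 had no such neighbour. Peaks of this kind cannot be assigned to 1 of the 2 genes.

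**Figure D4:**
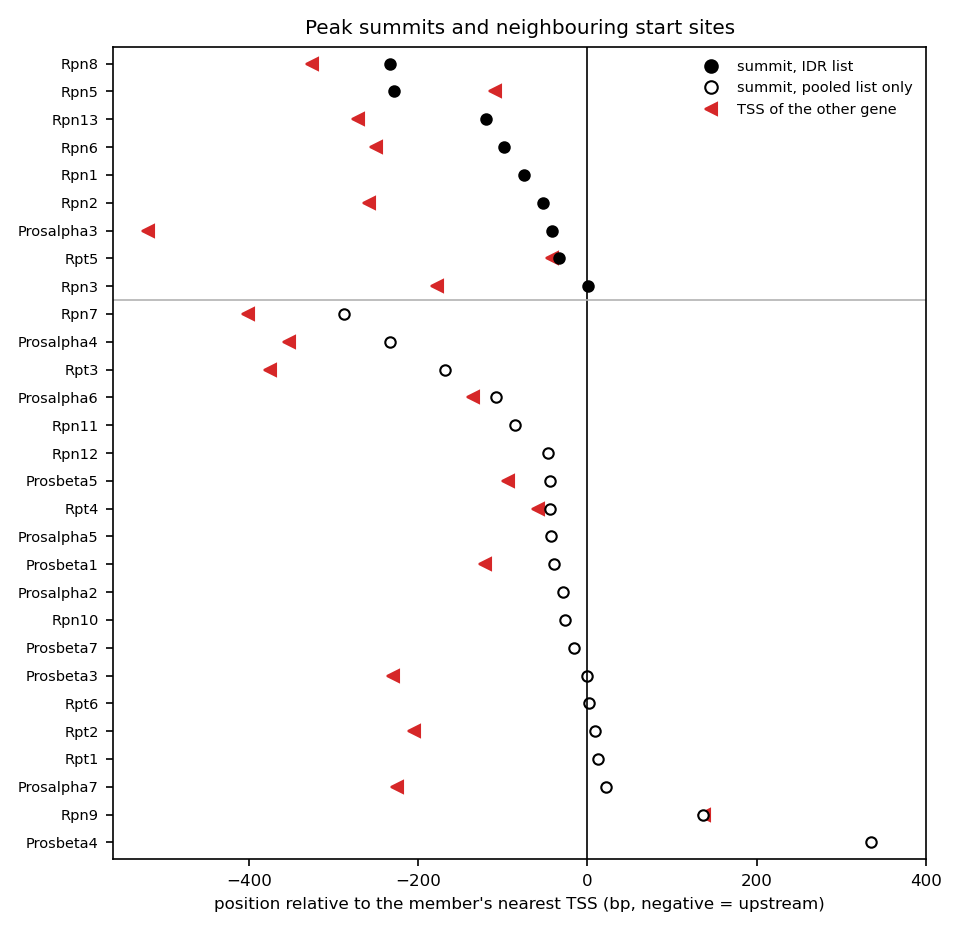
Position of the strongest pooled summit relative to the nearest TSS of the member (x axis, bp, negative upstream) for the 29 genes with one, bound genes above the grey line. Triangles are the TSS of the other gene within 500 bp of the summit; they lie mostly upstream, and at Rpt5, Rpt4 and Rpn9 they sit close to the summit.

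Summits lay upstream of the TSS at 8 of the 9 bound genes (88.9%) and at 90.0% of all bound genes. The median position was 75 bp upstream for the members and 108 bp upstream for all bound genes. Outside genes and UTRs, Rpn13, Rpn1, Rpn2, Prosalpha3 and Rpt5 had their summits 120, 75, 52, 42 and 34 bp upstream. Widening the distance to 1000 bp added no bound member.

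The promoters were also searched for the motifs on both strands, within 250 bp before to 50 bp after each TSS, so that genes with several TSSs had several windows. There, DRE stood at 1 of 16 paralogues (6.25%, Rpt3R) and 12 of 32 ubiquitous copies (37.5%), against 10.2% of all genes. The M1BP element stood at 0 paralogues and 7 ubiquitous copies (21.9%), against 8.71% of all genes. The ETS core was held by 0 paralogues and 2 ubiquitous copies (6.25%, Rpt3 and Rpn6), against 8.79% of all genes and 12.1% of all bound genes. The TATA box was present at 31.2% of paralogues and 43.8% of copies, against 51.2% of all genes, and the E-box at 6.25% and 9.38%, against 22.3%. The antioxidant response core, bound by Cnc with Maf-S, which drive proteasome genes under stress, stood at 31.2% and 37.5%, against 42.5% of all genes. Median GC content of these windows was 32.7% in paralogues, 33.8% in copies and 38.7% over all genes. The part of base composition in the motif shares was not tested.

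**Figure D5:**
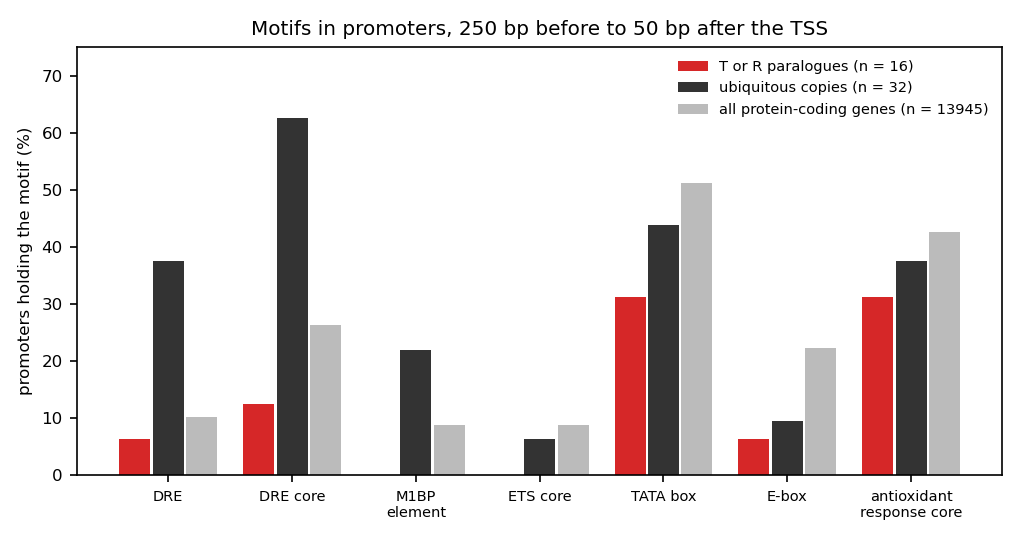
Percentage of genes whose promoter, 250 bp before to 50 bp after a TSS, holds each motif on either strand (y axis), for 16 paralogues, 32 ubiquitous copies and all 13945 protein-coding genes. DRE, its inner 6 bases (DRE core) and the M1BP element stand higher in the ubiquitous copies than in all genes, and the other 4 motifs lower.

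DRE was spread over bound and unbound copies. It stood at 4 of 9 bound members (44.4%; Prosalpha3, Rpt5, Rpn13 and Rpn3) and at 8 of 23 unbound copies (34.8%), among them the core genes Prosalpha5, Prosalpha6, Prosbeta1, Prosbeta2 and Prosbeta6 and the lid genes Rpn7, Rpn9 and Rpn12. It was held by 6 of 14 core, 2 of 10 base and 4 of 8 lid genes. The M1BP element stood at 2 of 9 bound members (22.2%, Rpn1 and Rpn8) and 5 of 23 unbound copies (21.7%). Within 100 bp of the IDR summit, DRE was found at the same 4 of 9 members (44.4%), against 10.8% of all bound genes. Its centre lay 8 bp from the summit in Rpt5, 49 bp in Prosalpha3, 79 bp in Rpn3 and 94 bp in Rpn13. No bound member had the ETS core within 100 bp of the summit, against 6.95% of all bound genes, and the 1 in the Rpn6 promoter window lay 589 bp from it. In the same summit window the TATA box stood at 5 of 9 bound members (55.6%), against 30.8% of all bound genes, and the antioxidant response core at 3 of 9 (33.3%), against 24.4%. The M1BP element was there at 1 of 9 (11.1%), against 6.77%, and the E-box at 1 of 9 (11.1%), against 16.3%. For the TATA box the other windows gave smaller or opposite differences. It stood at 55.6% of bound members and 52.8% of all bound genes in the promoter window. Within 100 bp of a TSS the shares were 22.2% and 29.5%.

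The inner 6 bases of DRE, ATCGAT, were looked at after the promoter sequences had been seen. They stood within 100 bp of the summit at 8 of 9 bound members, all but Rpn5, against 23.1% of all bound genes. In promoter windows they were held by 2 of 16 paralogues (12.5%) and 20 of 32 copies (62.5%), against 26.3% of all genes. Of the copies, 8 of 9 bound (88.9%) and 12 of 23 unbound ones (52.2%) held them, against 37.5% of all bound genes. Within 100 bp of a TSS, bound members and all copies were closer, at 5 of 9 (55.6%) and 16 of 32 (50%). The shares there were 31.6% of all bound genes and 21.3% of all genes.

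Genes that work with the proteasome were counted the same way. Of a list of 31 genes for assembly, regulators, ubiquitin, a ubiquitin ligase, shuttles, deubiquitinases, the p97 segregase and its cofactors, a chaperone, the Cnc pathway (cnc, maf-S and Keap1) and the COP9 signalosome, 15 (48.4%) were bound and 25 (80.6%) had a pooled promoter summit, against 15.8% and 53.6% of all genes. The 5 of highest signal were alien (146), which encodes subunit 2 of the COP9 signalosome, a complex built like the lid, Keap1 (144), which restrains Cnc, RpS27A (139), a ubiquitin fusion gene, Hsc70-4 (118), a chaperone, and Uch-L5 (112), a deubiquitinase of the proteasome. At each of these 5 the TSS of another gene (CG18661, kuk, Ip259, tefu and Jarid2, in that order) also lay within 500 bp of the summit. Such peaks cannot be assigned to a single gene. Of the other bound genes of the list, some shared their peak in this way and some did not. Of the 8 COP9 genes 4 were bound. The list was chosen with earlier results of these data known, and the difference from the subunits was not tested.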

How the data were processed

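The data were peak lists of 3 biological replicates of embryos expressing Ets65A-eGFP. The authors deposited a list per replicate, a pooled list and an IDR list on dm6. The pooled and replicate lists derive from alignments together with a further file that is not described, per the notes the authors deposited with them, and the labels name a possible control. For the aligner, the caller and the IDR threshold, the settings were not given in the sources used here. Deposited values per peak were a signal (a score of unstated scale) and −log10 q. Because 2533 IDR peaks share the highest −log10 q, ranks are by signal. The lowest −log10 q was 3.23 in the IDR list and 0.0177 in the pooled list. All 2780 IDR peaks were the strongest of the pooled list. Replicate lists were called separately and end at 30000, so ranks stand beside signals. There were 0 columns of unmapped samples, and depth is unknown.

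TSSs came from the Ensembl release 115 annotation and sequence from the RefSeq assembly of the same build, on 6 arms; all 48 members had a start codon at the outermost coding start. Counts were made in Python 3.11.15 and set beside all protein-coding genes, members included, with no test; the procedure was tested on simulated peaks. Replicates are described as biological by the labels. Motifs were searched on both strands, and matches of overlapping motifs were each counted. Every bound member, every paralogue, the 6 strongest unbound members and members with no summit were named by rule, with the 5 strongest pathway genes. The members and lists were chosen with earlier results of these data known. The dm3 lists were not used here.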

Additional observations from a re-analysis of the deposited data

How the results depend on the processing

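Counts depended on the peak list and on the TSS. With the 1390 strongest IDR peaks, 4 members, all ubiquitous copies, were bound, and 0 base genes, against 8.62% of all genes. With all pooled peaks, 29 members were counted, all ubiquitous copies, made up of 11 core (6 alpha and 5 beta), 10 base and 8 lid genes. Lid genes fell to 2 with the most upstream TSS of each gene, which lost Rpn6 and Rpn8, and to 2 where the peak had to overlap a TSS, which lost Rpn5 and Rpn8, against 14.3% and 10.5% of all genes. Distances of 250 and 1000 bp and the peak midpoint kept the same 9 members, against 12.9%, 17.9% and 15.8% of all genes. Genes among the strongest peaks of every replicate were 2, all ubiquitous copies, with 1390 peaks (base 0), against 5.39% of all genes, and 9 with 5560 (core 2, base 4), against 14.6%. Leaving out a replicate gave 4 to 6 members, 0 to 1 core genes and 1 to 2 base genes, against 11.7%, 10.7% and 11.6% of all genes without replicates 1, 2 and 3: Rpn2 and Rpn8 were added without replicate 1, and Prosalpha3 and Rpn13 without replicate 3. Around the summit the M1BP element was at 1 bound member and the ETS core at 0. Within 100 bp of a TSS, 12 members held a TATA box and 2 an E-box, against 34.1% and 17.4% of all genes. Counting members with no pooled summit as 0 gave a median signal of 36.9, against 54.8 without them. The other counts moved by at most 1.5 times. Leaving out Prosalpha1 and Prosalpha1R, chosen after seeing the data, could not change a count of bound genes, because neither was bound. It altered only the shares given above. No paired analysis was possible because all samples form 1 group. Depth, the control and positions within repeated sequence could not be examined from peak lists, and with 3 replicates a single list can decide whether a gene is among the strongest.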
